A study of Mus musculus with 12 samples.

Results

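Wnt genes encode secreted ligands, and the 52 genes described here are the ligands themselves together with the genes that receive, tune and report their signal. They were taken by symbol from the 22793 genes of the expression table, of which 22313 were marked as protein-coding. The rule took the protein-coding genes whose symbol starts with Wnt, Fzd, Sfrp, Dkk or Rspo followed by a digit, and added Lrp5, Lrp6, Lgr4, Lgr5, Wif1, Axin2, Lef1, Tcf7, Ror2, Rnf43 and Znrf3. By role these were 19 ligands, 10 Frizzled receptors, 3 co-receptors, 4 R-spondins, 4 R-spondin receptors or ligases, 9 secreted inhibitors and 3 targets or nuclear factors.

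The RNA came from pancreatic islets of RIP-rtTA; TetO-VEGF-A mice, a double transgenic line in which the insulin promoter (RIP) drives a Dox-dependent activator in beta cells and that activator switches on a VEGF-A transgene. The 12 libraries formed 4 groups of 3: whole islets of mice given no doxycycline (No Dox), whole islets of mice given Dox for 1 week, and macrophages (CD11b+) and endothelial cells (CD31+) that were both sorted from dispersed islets of mice given Dox for 1 week. All 4 groups carried both transgenes, the untreated controls included, and no group had Dox without the transgenes, so an action of Dox itself and that of VEGF-A cannot be told apart. The labels do not give age or sex, or whether libraries came from separate or pooled animals; the tests therefore weigh differences against the scatter among libraries, which may be technical.

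A Wnt ligand binds a Frizzled receptor together with Lrp5 or Lrp6, which stabilises beta-catenin and lets it act with Lef1 and Tcf factors on target genes such as Axin2, while Ror2 receives Wnt5a without beta-catenin. Sfrp and Wif1 proteins catch the ligands, Dkk proteins mostly block the Lrp co-receptors, and R-spondins bound to Lgr receptors remove Rnf43 and Znrf3, ubiquitin ligases that clear Frizzled from the surface. In vessels of the retina and brain, Frizzled-4 with Lrp5 and Tspan12 is known as the receptor of norrin, a ligand outside the Wnt family, and in the adult pancreas Wnt signalling has been studied in beta cells and in the cells around them.

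Values are the authors' normalized linear signal, whose floor was 1 in every library. The summed signal per library lay between 17635776 and 25226447, and 25.4 to 35.4% of genes sat at the floor. Read numbers are not given, so depth is unknown. Within each library, 29 to 44.7% of the values under 20 in shorter transcripts and 37 to 56.4% in longer ones (split at the median of 2313 bases) were whole multiples of 1 unit, within 0.1% of the value. Since that unit was shared by genes of different length, the signal had not been divided by length. A gene counts as detected in a library at a signal of 15.6 or more, the 40th percentile of all values. The sort was visible in markers: 12 endothelial genes made up 1.53 to 1.71% of the summed signal in endothelial cells and 0.00971 to 0.0137% in macrophages, 14 macrophage genes made up 1.97 to 2.1% in macrophages and 0.00178 to 0.00418% in endothelial cells, and 12 beta cell genes at most 0.042% in either fraction. In the endothelial fraction 5 macrophage markers were under the detection level (Itgam, Aif1, C1qa, C1qb and Tyrobp), with C1qa at the floor. Cldn5 was the only endothelial marker under that level in macrophages, and it was also under it in islets without Dox. The 8 markers of other endocrine cells made up 0.0802 to 0.146% in macrophages and 0.0147 to 0.0189% in endothelial cells, beside 0.725 to 0.829% in Dox islets. Between the fractions, 6 of 7 tested of these and 9 of 10 tested beta cell markers were called higher in macrophages, beside 27.7% of all genes. The part of such signal in the Wnt gene values of macrophages, Wnt4 among them, was not tested. Acinar genes varied between libraries of a fraction (0.00637 to 1.95% in macrophages, 0.00138 to 0.546% in endothelial cells). The islet libraries No Dox 2 and Dox 1 stood apart from the other 4, because their deviations from the group mean rose with the GC content of the gene (Spearman rho 0.646 and 0.583 over 14416 genes, against -0.332 to -0.454 in the others). The deviations of a gene sum to 0 within a group, so the signs of its libraries depend on each other.

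Of the 52 genes, 36 were detected in at least 1 library and 16 in all 12. Detected in all 3 libraries of a group were 27 genes in islets without Dox, 30 in Dox islets, 19 in macrophages and 21 in endothelial cells. Among the 19 ligands, 10 were under the detection level everywhere (Wnt1, Wnt2, Wnt3, Wnt3a, Wnt7a, Wnt7b, Wnt8b, Wnt9b, Wnt10a and Wnt10b), and Wnt1, Wnt2, Wnt3a and Wnt10b were at the floor in all 12 libraries. Also under it everywhere were Fzd9, Fzd10, Dkk1, Dkk4, Sfrp4 and Wif1. By group mean, 14 genes were highest in islets without Dox, 8 in Dox islets, 9 in macrophages (among them Wnt8a, Wnt11, Fzd7 and Lrp6) and 5 in endothelial cells (Fzd4, Fzd6, Lrp5, Lef1 and Dkk2).

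**Figure D1:**
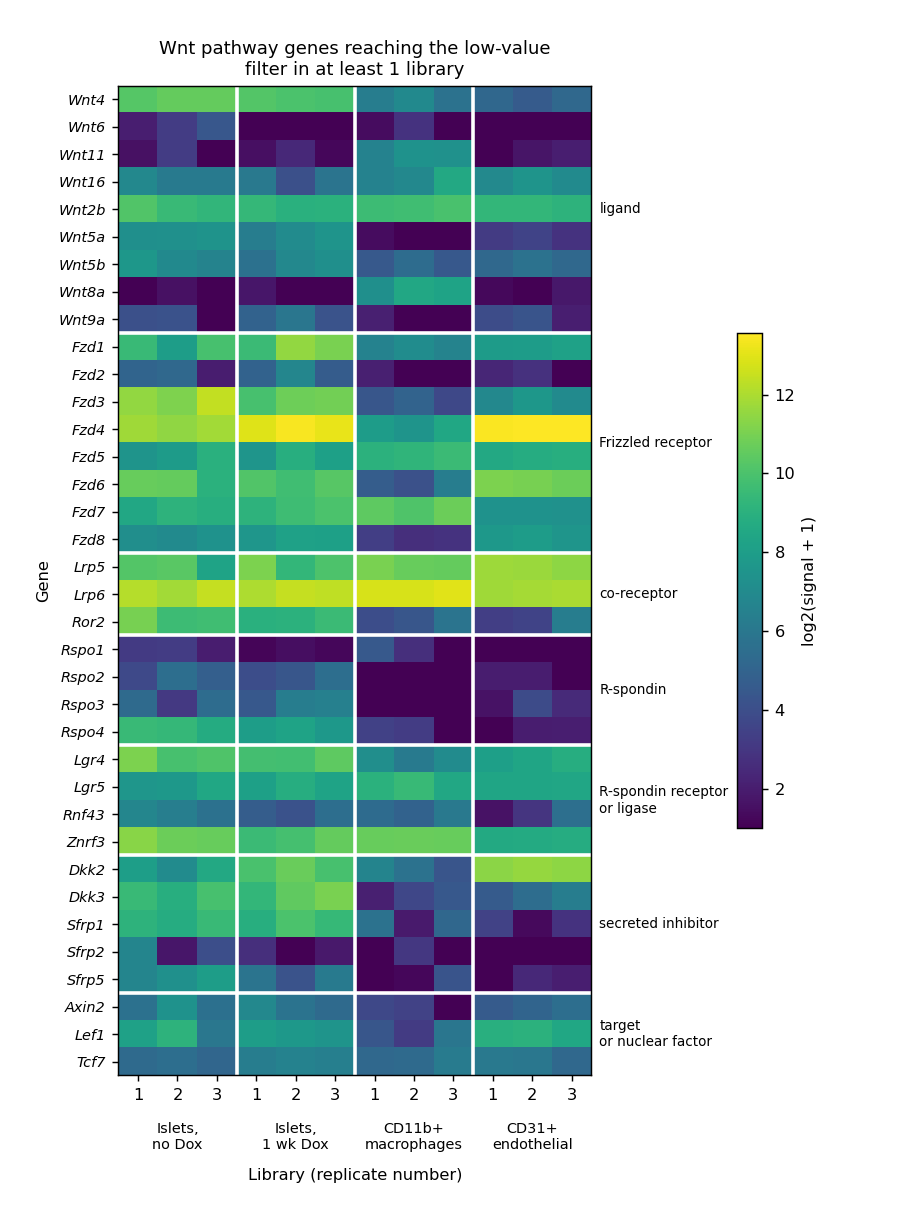
Signal of the 36 genes detected in at least 1 of the 12 libraries, as log2(signal + 1) by colour, with genes in rows ordered by role and libraries in columns by group. Colours are to be compared along a row, since the signal had not been divided by transcript length; Fzd4 is bright in the Dox islets and endothelial cells, and Wnt8a and Wnt11 stand out only in the 3 macrophage libraries.

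In whole islets, 1 week of Dox was accompanied by higher Fzd4, the Frizzled that also serves as norrin receptor, and higher Dkk2, a secreted protein that binds Lrp5 and Lrp6. Fzd4 signal was 3532, 2829.9 and 3562 in the 3 libraries without Dox and 7908, 10951 and 9189.8 in the Dox libraries. The lowest Dox library was above the highest library without Dox. On the log2(signal + 1) scale, on which all differences here are given and which understates changes near the floor, Fzd4 rose by 1.49 (SE 0.29, adjusted p = 0.0212, limma with Benjamini-Hochberg adjustment). Dkk2 signal was 265, 135 and 385 without Dox and 982, 1680 and 954 with Dox. These groups did not overlap either, although Dkk2 spread more widely in relation to its mean (262 ± 125 and 1205 ± 411, SD, n = 3) than Fzd4 (3308 ± 414 and 9349.6 ± 1528). The rise of Dkk2 was 2.28 (SE 0.45, adjusted p = 0.0229).

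These were the 2 calls among 31 genes of the set that could be tested in islets, against 5.74% of all 14436 genes tested (4.33% called higher, 1.41% lower). The share of the set, 6.45%, was near that background. At an unadjusted p under 0.05 in limma there were 8 genes, with Fzd1 higher and Fzd3, Rspo4, Sfrp5, Znrf3 and Rnf43 lower beside the 2 called. After adjustment limma called 0 lower. No share of all genes at an unadjusted p is given here or for the lists below, so such counts are descriptions alone. The median difference of the tested members was -0.01, against 0.11 over all genes tested, and 15 members lay above 0 and 16 below. Fzd4 was not called without Dox library 2 or 3 (limma adjusted p 0.133 at most). Dkk2 was not called without either of these or without No Dox library 1 (0.135 at most). With no filter on low values 0 of the set were called. Calls over all genes fell in these settings too, from 625 higher and 204 lower to 4 and 1 without Dox library 2. They were 66 and 11 without Dox library 3, 403 and 54 without No Dox library 1, and 78 and 19 with no filter.

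Markers of several cell types moved with Dox in the same libraries. The 12 endothelial markers made up 0.236 to 0.319% of the signal without Dox and 0.587 to 0.739% with Dox, with 8 of 12 called higher. The 10 pericyte and smooth muscle markers went from 0.3 to 0.617% up to 1.09 to 1.76%, with 5 called higher. The 10 fibroblast markers went from 0.105 to 0.197% up to 0.29 to 0.528%, with 5 called higher. The 14 macrophage markers went from 0.0293 to 0.0571% up to 0.0793 to 0.144%, with 6 called higher. Mitotic genes, which mark dividing cells of any type, went from 0.00463 to 0.022% up to 0.0553 to 0.124%, with 8 of 10 called higher. Acinar markers made up 0.175 to 0.67% without Dox and 0.437 to 1.43% with Dox, with 0 of 10 tested called. The 12 beta cell markers made up 2.31 to 3.64% without Dox and 0.952 to 1.07% with Dox, with 6 of 12 called lower. In bulk tissue, fewer or more cells of a type and less or more RNA per cell cannot be told apart, and the part of these shifts in the Wnt gene values was not tested.

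The promoters of the 2 genes that rose together are shown for their base composition and because a TCF/LEF motif was searched there. RefSeq sequences on build GRCm38.p6, from 250 bases before to 50 after the gene start, were given for 34 of the 52 genes (42 promoters). The motif ATCAAAG, or CTTTGAT when read on the opposite strand, was searched on both strands; it occurs in 3.73% of the 32851 promoters of the table and in 2 of the 42 (Wnt11 and Wnt5b, shown with the ligands). Fzd4 (chr7:89404116-89404415, + strand) is 72.7% G and C and Dkk2 (chr3:132085042-132085341, + strand) is 57.7%, and these letters do not occur in either window.
Fzd4 promoter: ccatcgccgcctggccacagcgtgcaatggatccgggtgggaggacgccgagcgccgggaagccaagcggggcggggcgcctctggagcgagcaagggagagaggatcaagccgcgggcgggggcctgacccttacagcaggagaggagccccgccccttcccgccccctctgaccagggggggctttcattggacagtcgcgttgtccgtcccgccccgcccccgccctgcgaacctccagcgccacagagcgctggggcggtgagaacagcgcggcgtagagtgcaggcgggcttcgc
Dkk2 promoter: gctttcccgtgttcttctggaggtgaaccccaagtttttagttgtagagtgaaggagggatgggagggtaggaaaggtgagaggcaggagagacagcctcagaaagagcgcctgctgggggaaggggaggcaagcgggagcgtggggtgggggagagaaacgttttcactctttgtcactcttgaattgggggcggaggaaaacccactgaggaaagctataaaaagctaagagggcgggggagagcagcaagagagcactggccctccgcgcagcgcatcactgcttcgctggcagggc

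The other genes of the set whose islet groups did not overlap went both ways, 13 of 31 with the 2 called (41.9%, against 25.4% of all genes tested), and none of these 11 passed the adjusted test. Tcf7, a nuclear partner of beta-catenin, read 39.1, 45 and 34.1 without Dox and 78.4, 94.2 and 83.8 with Dox. Its groups were tight and apart, with a difference of 1.10 (SE 0.53, adjusted p = 0.277). Fzd8 had means of 149 and 257 and Wnt9a of 11.3 and 35.8, without and with Dox. Apart in the other direction were Fzd3 (means 3533 and 1539), Rspo4 (597 and 256), Sfrp5 (173 and 47.5), Rnf43 (79.6 and 29.4), Ror2 (1207 and 595), Znrf3 (1954 and 1081), Wnt16 (86 and 46.2) and Wnt4.

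**Figure D2:**
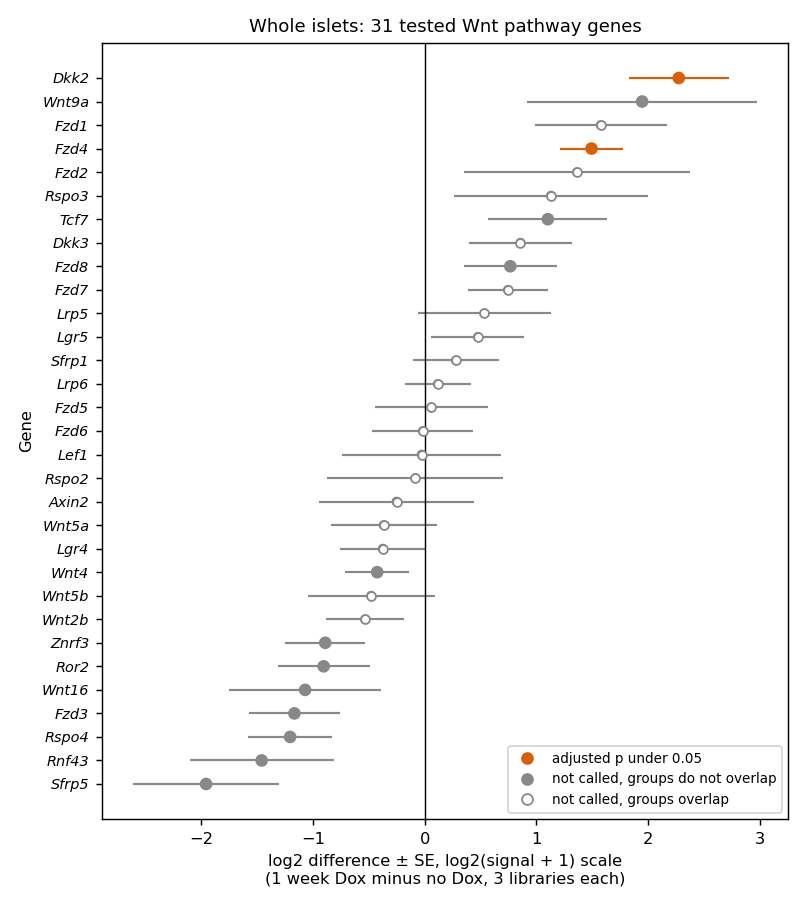
Difference between Dox islets and islets without Dox for the 31 tested genes on the log2(signal + 1) scale, as points with standard errors (3 libraries each), ordered by size. Orange points passed the adjusted test (Dkk2 2.28 and Fzd4 1.49), grey filled points did not pass although the libraries of the 2 groups were apart, and open points had overlapping groups.

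Wnt4, the ligand with the highest mean per length of transcript in both islet groups, read 1212, 1548 and 1525 without Dox and 1194, 1032 and 961 with Dox. The groups came close to each other at 1212 and 1194, and the difference was -0.42 (SE 0.29, adjusted p = 0.472). Wnt5a, a ligand known mainly for signalling without beta-catenin, read 152, 157 and 173 without Dox and 79.7, 134 and 179.9 with Dox, so the groups overlapped (difference -0.37, SE 0.48, adjusted p = 0.76). For Rspo3, an R-spondin, the libraries read 39.4, 7.47 and 41.9 against 20.8, 78 and 88.7 (difference 1.13, SE 0.87, adjusted p = 0.547). Without Dox, library 2 was the low one of Rspo3, and with Dox library 1.

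The inhibitors Sfrp1 and Dkk3 also overlapped between the islet groups. Sfrp1 read 559, 443 and 736 without Dox and 469, 1012 and 688 with Dox (difference 0.28, SE 0.39, adjusted p = 0.777). Dkk3, a Dickkopf relative that does not bind Lrp5 or Lrp6 in the way of Dkk1, read 722, 474 and 944 without Dox and 646, 1446 and 2067 with Dox (difference 0.86, SE 0.46, adjusted p = 0.334). For both genes Dox library 1 was the lowest of the Dox libraries.

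Lrp5, the co-receptor that works with Fzd4, read 1162, 1304 and 317 without Dox and 2171, 627 and 1073 with Dox (difference 0.54, SE 0.60, adjusted p = 0.711). Axin2, the target gene most often used as a readout of beta-catenin, read 50, 169 and 48.4 against 114, 53.8 and 39.2 (difference -0.25, SE 0.69, adjusted p = 0.902). Its highest value in each group was in the library of high GC deviation, No Dox 2 and Dox 1. Lef1 read 286, 563 and 61.2 against 254, 205 and 181 (difference -0.03, SE 0.71, adjusted p = 0.991), and the sign of the Axin2 and Lef1 differences turned when No Dox library 2 was left out (0.34 and 0.67). That of Lrp5 turned without No Dox library 3 (-0.12).

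Between the 2 sorted fractions, Wnt genes took different sets: macrophages had more Wnt8a, Wnt11, Wnt4 and Wnt2b, Fzd7, Fzd5, Lrp6 and Znrf3, and endothelial cells more Fzd4, Fzd6, Fzd8, Fzd3, Fzd1, Lrp5, Lef1, Axin2, Lgr4, Dkk2 and Dkk3. Of 25 genes tested, 8 were called higher in macrophages and 11 lower, against 27.7% and 31.5% of 13710 genes, and 76% of the set was called against 59.2%. The libraries of the 2 fractions did not overlap for 20 of the 25, against 66.6% of all genes. Axin2, Fzd8, Wnt8a and Wnt11 passed the low-value filter through 1 fraction alone and so had to differ; the p-values of these and of the like genes named next describe them and support nothing. The median of the tested members was -0.15, beside -0.10 for all genes.

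Against the Dox islets, most of the set was lower in macrophages. Of 32 genes tested, 6 were higher and 20 lower, beside 21.3% and 31.4% of 14474 genes (52.7% called in all), and 28 of 32 did not overlap, beside 60.9%. The median was -3.24, beside -0.19, but 9 of the 32 passed the filter through 1 group alone (Wnt5a, Wnt8a, Wnt9a, Wnt11, Fzd2, Fzd8, Rspo3, Rspo4 and Axin2). In endothelial cells against the same Dox islets, 5 of 30 genes were higher and 14 lower, beside 11.5% and 21.6% of 14193 genes (33.1% called in all). Here 22 of 30 did not overlap, beside 48.3%, the median was -1.37, beside 0.005, and 6 genes passed the filter through 1 group alone (Wnt5a, Fzd2, Rspo3, Rspo4, Sfrp1 and Sfrp5). The 3 comparisons share libraries pairwise, so their values stand side by side below and are no independent evidence of each other. The fractions were dispersed and sorted while the islets were whole, so handling and cell type cannot be told apart in the comparisons with islets. No cells were sorted from mice without Dox, so no fraction value shows a change with Dox within a cell type.

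**Figure D3:**
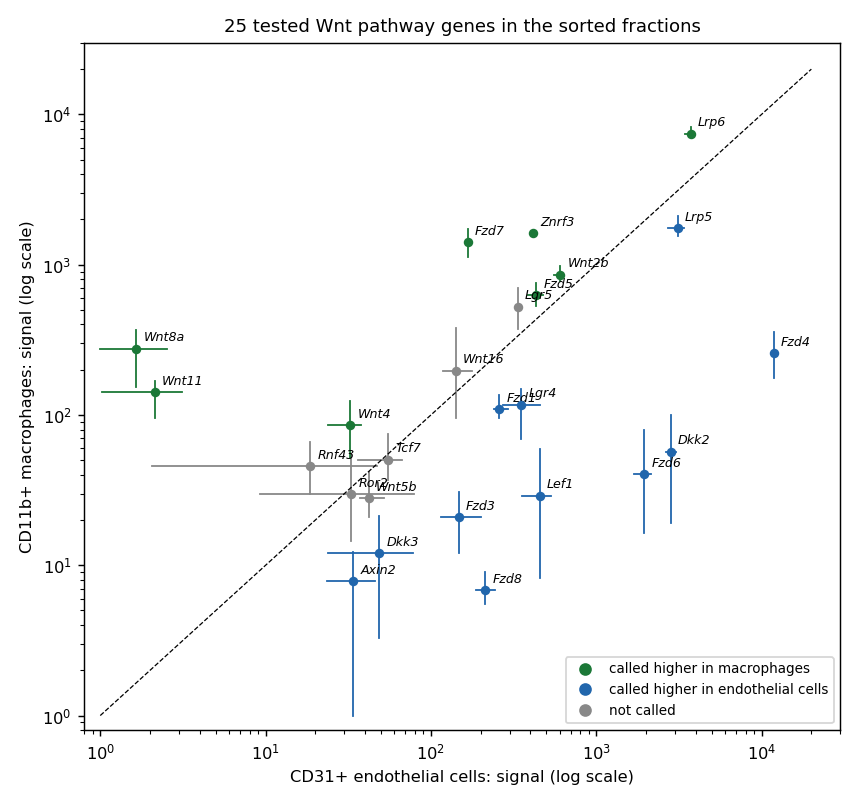
Mean signal of the 25 tested genes in endothelial cells (horizontal, log scale) and macrophages (vertical, log scale), with bars from the lowest to the highest of 3 libraries and a dashed line of equal signal. Green genes were called higher in macrophages (8), blue genes higher in endothelial cells (11), and grey genes were not called (6); Wnt8a and Wnt11 lie far above the line and Fzd4, Fzd6 and Dkk2 far below it.

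Among ligands, Wnt8a marked the macrophage libraries. It read 152, 366 and 310.0 there and at most 2.45 in an islet library and 2.53 in an endothelial library. All 3 macrophage libraries were thus above all 9 others. The difference was 6.66 against endothelial cells (SE 0.48, adjusted p = 8.08e-06) and 6.76 against Dox islets (SE 0.60, adjusted p = 1.87e-05). Its nearest gene, Nme5, lies 14361 bases away in GENCODE M1 and read 140.2, 247 and 239 in macrophages, with means of 77.1 in islets without Dox, 34.1 in Dox islets and 1.67 in endothelial cells. Whether Nme5 transcripts contribute to the Wnt8a signal was not tested.

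Wnt11 had the same distribution at a lower level, with 95.2, 169 and 162 in macrophages and at most 8.53 in the 9 other libraries. Its difference was 5.53 against endothelial cells (SE 0.47, adjusted p = 1.96e-05) and 5.39 against Dox islets (SE 0.60, adjusted p = 6.82e-05). Wnt8a and Wnt11 entered both tests through the macrophage group alone. Wnt11 lies at chr7:105983622-106003705 of mm9, on the + strand, and overlaps a pseudogene annotated on the other strand. Wnt11 and Wnt5b are the members whose promoters hold the motif named above, written in capitals: the Wnt11 promoter (GRCm38.p6 chr7:98834862-98835161, + strand) has it on the strand of the gene with its first base at -51 from the start, and 1 of the Wnt5b promoters (chr6:119449337-119449636, - strand) has it on the opposite strand at -71.
Wnt11 promoter: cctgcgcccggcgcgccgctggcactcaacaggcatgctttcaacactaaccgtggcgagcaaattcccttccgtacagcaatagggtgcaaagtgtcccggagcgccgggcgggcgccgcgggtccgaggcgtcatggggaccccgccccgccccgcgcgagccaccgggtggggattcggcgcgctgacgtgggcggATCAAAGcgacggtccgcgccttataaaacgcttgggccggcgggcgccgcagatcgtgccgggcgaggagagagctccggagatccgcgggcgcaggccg
Wnt5b promoter: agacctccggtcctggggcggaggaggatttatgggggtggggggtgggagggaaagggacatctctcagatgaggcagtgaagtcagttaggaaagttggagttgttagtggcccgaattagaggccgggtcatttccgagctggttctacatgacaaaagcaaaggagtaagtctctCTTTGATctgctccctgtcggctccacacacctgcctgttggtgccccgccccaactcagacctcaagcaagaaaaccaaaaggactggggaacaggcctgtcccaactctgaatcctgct

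A match to these letters describes the sequence and says nothing of a factor binding there; a further Wnt11 promoter in the table lacks them. Wnt5b itself read 201, 124 and 97.3 in islets without Dox, 50.9, 115 and 152 in Dox islets, 21.8, 41.8 and 20.8 in macrophages and 37.4, 51.9 and 37.4 in endothelial cells. It was lower in macrophages than in Dox islets (difference -1.81), and its 2 sorted fractions overlapped. Wnt5b overlaps Fbxl14 on the opposite strand (means 795, 808, 556 and 497 in the same order of groups), and since the use of strand in counting is not given in the sources used here, reads of the pair cannot be told apart.

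Wnt4 and Wnt5a belonged to whole islets. Wnt4 read 80.1, 123 and 51.9 in macrophages and 36.1, 23.8 and 37.5 in endothelial cells, all far under the lowest islet library at 961. The differences from Dox islets were -3.71 in macrophages (SE 0.39, adjusted p = 4.8e-05) and -5.01 in endothelial cells (SE 0.30, adjusted p = 1.19e-05), and macrophages were above endothelial cells by 1.31 (SE 0.44, adjusted p = 0.0318). Wnt5a read 1.64, 1 and 1 in macrophages and 8.2, 10.5 and 6.25 in endothelial cells, under the detection level in all 6. Wnt5a entered both tests through the Dox islets alone and was below them, with differences of -5.84 in macrophages (SE 0.58, adjusted p = 3.55e-05) and -3.78 in endothelial cells (SE 0.47, adjusted p = 0.000381).

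Wnt2b and Wnt16 were the ligands detected in all 12 libraries together with Wnt4 and Wnt5b. Wnt2b had means of 834, 561, 859 and 605 in islets without Dox, Dox islets, macrophages and endothelial cells, and was higher in macrophages than in endothelial cells by 0.50. Wnt16 read 66.6, 15.9 and 56.2 in Dox islets, 95.2, 117 and 379.8 in macrophages and 118, 177 and 128 in endothelial cells. Both fractions lay above the Dox islets, by 2.02 in macrophages and 1.80 in endothelial cells on the log2 scale, while the fractions overlapped each other. Wnt9a, with a Dox islet mean of 35.8, was lower in macrophages (difference -3.66) and not called in endothelial cells (mean 11.8).

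Signal was divided by the length of the longest protein-coding transcript to compare genes. On that scale Wnt4 and Wnt2b led the ligands in both islet groups, at 341 and 233 signal per kb without Dox and 253 and 157 with Dox. The ranges of the pair overlapped without Dox (289 to 369 and 173 to 322) and were apart with Dox (229 to 285 and 140 to 187). In macrophages the order was Wnt2b at 240.4 per kb, Wnt8a at 158, Wnt16 at 55.6 and Wnt11 at 41.2, followed by Wnt4 and Wnt5b. In endothelial cells Wnt2b led at 169 per kb, ahead of Wnt16 at 39.7, Wnt5b at 18 and Wnt4 at 7.74. The ranges of Wnt2b (216.69 to 273.84 per kb) and Wnt8a (87.31 to 209.64) in macrophages did not overlap, whereas those of Wnt16 and Wnt11 did.

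**Figure D4:**
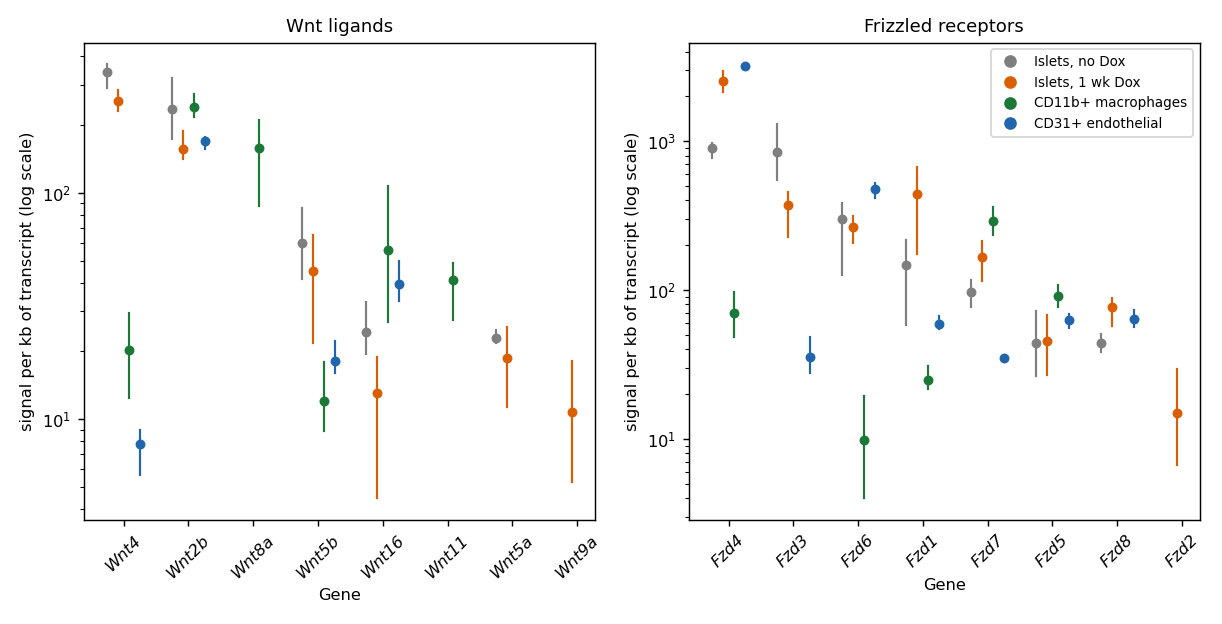
Signal per kb of transcript (log scale) of Wnt ligands (left) and Frizzled receptors (right) in the groups where all 3 libraries reached the detection level, with points for group means and bars from the lowest to the highest of 3 libraries. Wnt4 and Wnt2b lead the islet ligands, Wnt8a and Wnt11 appear for macrophages only, and Fzd4 leads the receptors of Dox islets and endothelial cells while Fzd7 leads those of macrophages.

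Among receptors, Fzd4 had its highest values in endothelial cells, at 11591, 11854 and 12096, and read 242, 177 and 357 in macrophages. Every endothelial library was above every Dox islet library, and every macrophage library far below every islet library. The difference of macrophages was -5.57 from endothelial cells (SE 0.23, adjusted p = 3.59e-07) and -5.22 from Dox islets (SE 0.28, adjusted p = 1.45e-06). Between endothelial cells and Dox islets it was 0.35 (SE 0.18, adjusted p = 0.16, and 0.0192 with the GC trend removed), while the endothelial markers were a share of 1.53 to 1.71% of the signal in these cells and 0.587 to 0.739% in those islets. Fzd4 lies at chr7:96552876-96558620 of mm9, on the + strand, and its neighbour Tmem135, 144 bases away, had a mean of 3353 in macrophages, 1573 in endothelial cells, 1872 in Dox islets and 2315 in islets without Dox.

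Fzd6, a Frizzled known for planar polarity, read 2142, 2039 and 1683 in endothelial cells, 25, 16.3 and 79.6 in macrophages and 1148, 840.1 and 1277 in Dox islets. The 3 groups did not overlap. Macrophages differed from endothelial cells (difference -5.88, SE 0.52, adjusted p = 2.64e-05) and from Dox islets (difference -5.02, SE 0.58, adjusted p = 8.58e-05), and endothelial cells were above Dox islets by 0.86. Fzd8 read 204, 245 and 188 in endothelial cells and 8.97, 5.5 and 6.05 in macrophages, and the latter were under the detection level. The difference was -4.78 between macrophages and endothelial cells (SE 0.37, adjusted p = 1.16e-05) and -5.04 between macrophages and Dox islets (SE 0.51, adjusted p = 4.18e-05). Endothelial cells and Dox islets (191, 295 and 284) overlapped for Fzd8.

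Fzd7 was the Frizzled of macrophages, at 1371, 1117 and 1727, against 166, 171 and 164 in endothelial cells and 556, 805 and 1031 in Dox islets. No 2 of these groups overlapped. It was higher in macrophages by 3.04 than in endothelial cells (SE 0.20, adjusted p = 4.34e-06) and by 0.84 than in Dox islets, and lower in endothelial cells than in Dox islets (difference -2.21, SE 0.28, adjusted p = 0.000438). Fzd5 was also higher in macrophages (mean 628) than in endothelial cells (433, by 0.53) and Dox islets (313, by 1.09).

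Fzd3, Fzd1 and Fzd2 were highest in whole islets. Fzd3, which acts in axon and fibre tract growth, read 946, 1773 and 1899 in Dox islets, 115, 201 and 126 in endothelial cells and 19.4, 30.9 and 12.1 in macrophages. These 3 groups stood in steps without overlap. Its difference was -6.17 in macrophages (SE 0.48, adjusted p = 9.72e-06) and -3.36 in endothelial cells (SE 0.34, adjusted p = 0.00014) from Dox islets, and -2.81 between macrophages and endothelial cells (SE 0.45, adjusted p = 0.000858). Fzd1 read 764, 2934 and 2077 in Dox islets and had means of 259 in endothelial cells and 109 in macrophages, with differences from Dox islets of -2.69 (SE 0.45, adjusted p = 0.00183) and -3.95, and of -1.26 between the fractions. Fzd2, at 30.2, 107 and 24.3 in Dox islets, was under the detection level in both fractions and called lower in each, with differences of -4.10 in macrophages and -3.41 in endothelial cells (SE 0.73, adjusted p = 0.00733).

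Per kb of transcript, Fzd4 led in islets without Dox at 898, beside Fzd3 at 849.8, and the ranges of the pair overlapped. In Dox islets Fzd4 led at 2537, ahead of Fzd1 at 440.0 and Fzd3 at 370.2, which overlapped each other. In endothelial cells Fzd4 stood at 3215 and Fzd6, next in order, at 479 per kb. In macrophages Fzd7 led at 293, ahead of Fzd5 at 90.8 and Fzd4 at 70.2.

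Lrp5 and Lrp6 lay on opposite sides between the fractions. Lrp5 read 3409, 3232 and 2718 in endothelial cells and 2116, 1609 and 1553 in macrophages, with no overlap. Macrophages were lower (difference -0.83, SE 0.15, adjusted p = 0.00177, but 0.204 with all 4 groups fitted together), endothelial cells were above Dox islets by 1.45 (SE 0.39, adjusted p = 0.0219), and macrophages overlapped with Dox islets (difference 0.62, SE 0.40, adjusted p = 0.225). Lrp6 went the other way, with 7051, 7029 and 8281 in macrophages, 3456, 3776 and 3977 in endothelial cells and 4143, 5612 and 5178 in Dox islets. It was higher in macrophages by 0.99 than in endothelial cells and by 0.59 than in Dox islets. Ror2, a receptor of Wnt5a, read 510.3, 530.0 and 744 in Dox islets, 14.6, 19.6 and 55.3 in macrophages and 9.22, 10.6 and 79 in endothelial cells; it was lower in both (difference -4.48 in macrophages and -4.79 in endothelial cells, SE of the latter 0.74, adjusted p = 0.00124).

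**Figure D5:**
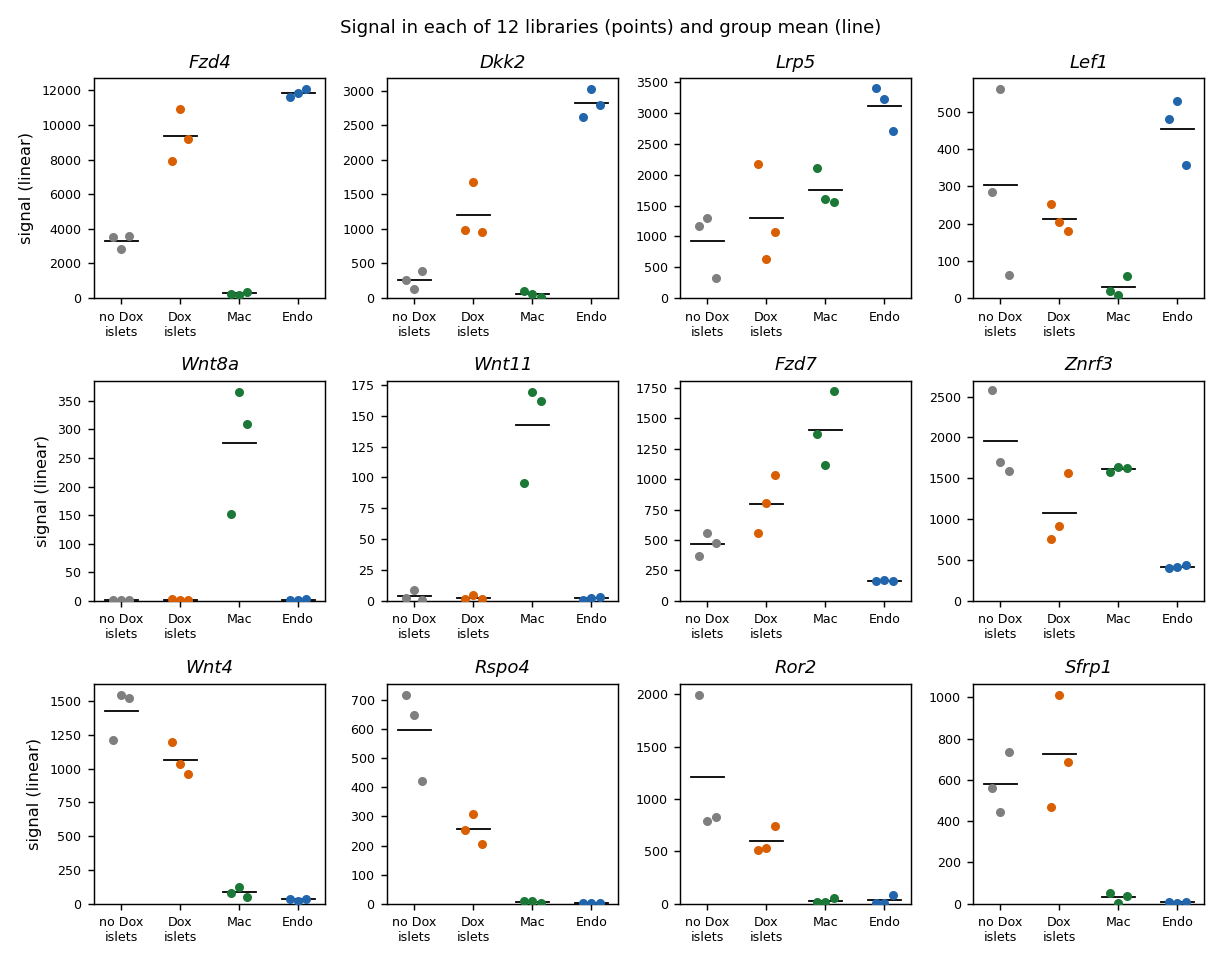
Signal (linear axis from 0, own scale in each panel) of 12 genes in each of the 12 libraries as points, with a line at the group mean; Mac, macrophages, and Endo, endothelial cells. Fzd4, Dkk2, Lrp5 and Lef1 have their highest means in endothelial cells, Wnt8a, Wnt11 and Fzd7 in macrophages, and Wnt4, Rspo4, Ror2, Znrf3 and Sfrp1 in whole islets.

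Of the R-spondins, Rspo2, Rspo3 and Rspo4 were detected in whole islets and in neither fraction, and Rspo1 in no islet library. Rspo4 read 719, 650.1 and 421 without Dox and 255, 308 and 204 with Dox, and in the fractions at most 9.82. Rspo4 entered both tests through the Dox islets alone and was lower than there, with differences of -5.44 in macrophages (SE 0.72, adjusted p = 0.000203) and -6.30 in endothelial cells (SE 0.47, adjusted p = 3.04e-05). Rspo3 was at the floor of 1 in all 3 macrophage libraries and read 2.05, 13.8 and 4.69 in endothelial cells. Endothelial cells were below the Dox islets (difference -3.08, SE 0.77, adjusted p = 0.015), and macrophages were called lower too (SE 0.69, adjusted p = 0.000353), for which no size is given because the group is at the floor. Rspo2, with an islet mean of 28.3 without and 26.5 with Dox, was at most 3.07 in both fractions.

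Of the R-spondin receptors, Lgr4 was lower in both fractions than in Dox islets (mean 1046), with differences of -3.19 in macrophages (mean 117) and -1.56 in endothelial cells (mean 353), and lower in macrophages than in endothelial cells (difference -1.63). Lgr5, known as a stem cell marker of the gut, read 511, 697 and 371 in macrophages, 331, 333 and 343 in endothelial cells and 283, 448 and 308 in Dox islets. No comparison of Lgr5 passed the main test (adjusted p 0.0682 between the fractions, which did not overlap). Between the fractions Lgr5 was called by limma with median ratio rescaling (adjusted p = 0.0353), with the GC trend removed (0.0269) and without macrophage library 3 (0.00568). In macrophages against Dox islets it was called with the GC trend removed (0.024). Of the ligases, Znrf3 read 1572, 1644 and 1622 in macrophages and 399, 408 and 438 in endothelial cells. It was higher in macrophages by 1.96 (SE 0.13, adjusted p = 3.75e-06), and lower in endothelial cells than in Dox islets (difference -1.31). Its partner Rnf43 read 41.1, 29.8 and 65.9 in macrophages and 2.05, 6.74 and 46.9 in endothelial cells (difference 2.09, adjusted p = 0.0903, or 0.0345 with the replicate number as a block), so endothelial library 3 lay among the macrophages.

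Among inhibitors, Dkk2 followed the endothelial cells, at 2624, 3031 and 2800.0, against 99.8, 52.1 and 19 in macrophages. Dox islets, at 954 to 1680, lay between without overlap. The differences were -5.89 between macrophages and endothelial cells (SE 0.52, adjusted p = 2.48e-05), -4.62 between macrophages and Dox islets (SE 0.58, adjusted p = 0.000153) and 1.27 between endothelial cells and Dox islets. Dkk2 lies at chr3:131748256-131843257 of mm9, on the + strand, with no overlapping gene in GENCODE M1. Per kb, endothelial Dkk2 stood at 763 signal, above Lrp5 at 603, the co-receptor it can bind, and below Fzd4.

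Sfrp1 and Dkk3 were low in both fractions. Sfrp1 read 52.4, 2.75 and 36.3 in macrophages and 10.2, 1.51 and 6.25 in endothelial cells. The difference from Dox islets was -5.14 in macrophages (SE 0.92, adjusted p = 0.00123) and -6.87 in endothelial cells (SE 0.60, adjusted p = 6.24e-05), where Sfrp1 was under the detection level. Dkk3 read 3.27, 11.8 and 21.2 in macrophages and 23.7, 43.7 and 78.2 in endothelial cells, with no overlap between them. Its differences were -6.87 in macrophages (SE 0.70, adjusted p = 4.16e-05) and -4.81 in endothelial cells (SE 0.54, adjusted p = 0.000228) from Dox islets, and -2.06 between the fractions (SE 0.71, adjusted p = 0.0362). Sfrp5 read 55.9, 17.7 and 68.9 in Dox islets and at most 18.1 in macrophages and 4.52 in endothelial cells, lower with differences of -3.24 in macrophages and -3.56 in endothelial cells (SE 0.67, adjusted p = 0.00382).

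Fibroblast and pericyte markers were also lower in the fractions than in the islets that hold these genes. The 10 fibroblast markers made up 0.00841 to 0.0211% of the signal in macrophages and 0.00611 to 0.0198% in endothelial cells, and all 10 were called lower than in Dox islets in each fraction. The 10 pericyte markers made up 0.0181 to 0.068% and 0.0768 to 0.294%, with all 10 called lower in each, and the 12 beta cell markers 0.0245 to 0.042% and 0.00462 to 0.00499%. Which of these cells carry the islet Wnt4, Wnt5a, Rspo4, Sfrp1, Dkk3, Ror2 and Fzd3 was not tested.

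Of the nuclear factors and targets, Lef1 read 480.5, 530.3 and 356 in endothelial cells and 19.5, 8.17 and 59.5 in macrophages. Macrophages were lower than endothelial cells (difference -4.33, SE 0.64, adjusted p = 0.000545) and than Dox islets (difference -3.24, SE 0.70, adjusted p = 0.0036), and endothelial cells were above Dox islets by 1.09 (SE 0.27, adjusted p = 0.0156). Axin2 read 23.6, 32.3 and 46.1 in endothelial cells and 12.3, 10.2 and 1 in macrophages. It was lower in macrophages than in endothelial cells (difference -2.34, SE 0.76, adjusted p = 0.0283) and than in Dox islets (difference -3.25, SE 0.83, adjusted p = 0.00934), while endothelial cells overlapped with Dox islets (difference -0.91, SE 0.51, adjusted p = 0.208, turned to 0.44 by quantile normalization). Tcf7 read 37.2, 40.1 and 74.2 in macrophages and 66.8, 62.8 and 36.4 in endothelial cells, overlapping (difference -0.15, SE 0.44, adjusted p = 0.787). Both fractions were under the Dox islets for Tcf7, with no overlap, without passing the test (differences -0.81, SE 0.50, adjusted p = 0.199 in macrophages and -0.66, SE 0.39, adjusted p = 0.223 in endothelial cells), and quantile normalization turned both to above 0 (0.052 and 0.41).

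Several calls between fractions rested on particular libraries. Between macrophages and endothelial cells, those of Wnt2b (adjusted p 0.0504 to 0.072) and Axin2 (0.0511 to 0.0912) were lost without any 1 of the 3 endothelial libraries, and those of Wnt4 (0.0544 to 0.116; macrophage library 1 or 2 or any endothelial one), Fzd5 (0.0582 to 0.135; macrophage library 2 or 3 or any endothelial one) and Dkk3 (0.0631 to 0.124; macrophage library 1 or 2, endothelial library 2 or 3) without the libraries named. Against Dox islets, the macrophage calls of Lrp6, Fzd5, Fzd7, Wnt16, Wnt5b and Sfrp5 were each lost without any 1 of 4 or 5 libraries, with adjusted p between 0.0505 and 0.143, and every library of the 2 groups ended at least 1 of them. The endothelial calls of Wnt16 (adjusted p 0.0518 to 0.133; any library but Dox 1), Lrp5 and Lef1 (0.0563 to 0.0908; Dox library 3, endothelial library 1 or 2), Fzd6 (0.0663 and 0.0757; endothelial library 1 or 2) and Rspo3 (0.0584 to 0.0695; Dox library 2 or 3, endothelial library 1) were lost in the same way.

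Other settings ended calls as well, with limma's adjusted p given for each. With all 4 groups fitted together, the calls of Fzd1 (0.066), Wnt2b (0.139), Lrp5 (0.204) and Fzd5 (0.322) between the fractions were lost, and those of Dkk2 (0.095), Fzd6 (0.27) and Lef1 (0.328) between endothelial cells and Dox islets. With no filter on low values, those of Wnt4 (0.0886), Axin2 (0.117), Dkk3 (0.143) and Fzd5 (0.0629) were lost between the fractions, those of Axin2, Fzd5, Fzd7, Sfrp5, Wnt16 and Wnt5b in macrophages against Dox islets (0.063 to 0.153), and those of Lrp5, Rspo3 and Wnt16 in endothelial cells (0.0852 to 0.137). Quantile normalization ended the call of Wnt4 between the fractions (0.0584), of Sfrp5, Wnt5b and Wnt9a in macrophages (0.0623 to 0.304) and of Fzd2, Rspo3 and Sfrp5 in endothelial cells (0.128 to 0.439). Without a variance trend, Fzd5, Fzd7, Lrp6 and Wnt16 in macrophages (0.0523 to 0.0839) and Lrp5 in endothelial cells (0.0505) were not called. With the GC trend removed, Fzd5 was called in neither of its comparisons (0.0695 and 0.0544) and Fzd7 not against Dox islets (0.14), and with a pseudocount of 100 Fzd2 was not called in endothelial cells (0.0565).

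The wider pathway was followed in 4 further lists. In islets, Tspan12, the tetraspanin of the Fzd4 receptor complex, read 1511, 1383 and 1384 without Dox and 4839, 5179 and 3686 with Dox. The Dox libraries were all above the others, and Tspan12 rose by 1.67 (SE 0.28, adjusted p = 0.0136). Vangl1, a planar polarity protein, rose from a mean of 992 ± 244 to 2972 ± 370 (SD, n = 3; difference 1.60, adjusted p = 0.019), and Daam2, a formin that binds Dishevelled, from 747 ± 222 to 1936 ± 292 (difference 1.40, adjusted p = 0.0366). These were 2 of 13 tested co-receptor and membrane genes and 1 of 37 cytoplasmic and nuclear genes. Of all 14436 genes tested in islets, 4.33% were called higher and 1.41% lower. The 9 tested secretion genes and the 13 tested targets gave 0 calls in limma, with 3 and 5 at an unadjusted p under 0.05; with no filter on low values, 1 call was left among the 4 lists.

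Tspan12 also ran with Fzd4 in the fractions, at 7623, 8189.9 and 7044 in endothelial cells and 96.6, 61.9 and 109 in macrophages. It was lower in macrophages (difference -6.44, adjusted p = 1.47e-07), and endothelial cells were above Dox islets by 0.75 (adjusted p = 0.0135). Ndp, the gene of norrin, was at most 3.15 in any of the 12 libraries. Between the fractions, where 27.7% of all genes were higher in macrophages and 31.5% lower, the co-receptor list had 1 gene higher in macrophages and 8 lower of 12 tested, the cytoplasmic and nuclear list 5 and 18 of 33, the secretion list 2 and 2 of 6 and the target list 3 and 5 of 10.

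Largest in macrophages over endothelial cells were Sdc4, a heparan sulphate proteoglycan (means 9813 and 25.9, difference 8.53), Cd44 (18135 and 84, difference 8.03), Myc (1904 and 291, difference 2.72), Celsr3 (199 and 39.8, difference 2.33) and Id2 (2901 and 591, difference 2.27). Largest in the other direction were Sox17, a transcription factor of arterial endothelium (25.9 and 2977, difference -6.96), Apcdd1, a Wnt antagonist that is itself a target (9.45 and 757, difference -6.65), Tspan12, Ptk7 (4.21 and 267, difference -6.22) and Vangl1 (92.4 and 3167, difference -5.28). Of these, Apcdd1 and Ptk7 were under the detection level in every macrophage library. They entered the test through the endothelial cells alone and so had to differ, and the list counts include genes of this kind. Members of the target list went both ways, and Cd44, Myc, Id2 and Sox17 are known to have many regulators besides Wnt.

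Against Dox islets, beside 21.3% of all genes higher and 31.4% lower, macrophages had 1 secretion gene higher and 5 lower of 8, 0 co-receptors higher and 11 lower of 13 (11 at an unadjusted p under 0.05), 3 and 17 of 34 cytoplasmic and nuclear genes and 4 and 6 of 13 targets. Endothelial cells, beside 11.5% and 21.6% of all genes, had 0 and 6 of 8 (6 at an unadjusted p under 0.05), 2 and 5 of 13, 4 and 4 of 35, and 2 and 6 of 13. Frzb, a secreted Frizzled-related inhibitor, was the lowest against islets in both. Its means were 2254 in Dox islets, 15.5 in macrophages (difference -7.21) and 4.66 in endothelial cells (difference -8.87). In every endothelial library Frzb was under the detection level, so it entered that test through the Dox islets alone and had to differ. The list counts include genes of this kind. Wls, the carrier that brings Wnt ligands to the surface, was lower than in Dox islets (mean 2731) in macrophages (1886, difference -0.53) and in endothelial cells (999, difference -1.46), and higher in macrophages than in endothelial cells by 0.93. Nuclear partners of beta-catenin parted as well: Tcf7l2 was higher in macrophages than in endothelial cells by 0.88 and Tcf7l1 lower (difference -4.62).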

How the data were processed

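Gene expression was measured by RNA-seq in 12 libraries. Per the labels, RNA was amplified with a NuGEN Ovation kit, made into NEBNext libraries and sequenced on a HiSeq2500. The deposited signal values are linear and had been normalized by the authors; how is not stated. The submitters' processing notes name TopHat2 2.0 and mm9, with no roles. No counts were used, so the depth behind a value and its counting error are unknown.

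The 52 genes and all lists were chosen with earlier results of these data known. Symbols that had turned into dates (25) were restored. Each comparison of 2 groups (6 libraries) was fitted over all genes on log2(signal + 1) with limma 3.58.1 (R 4.3.3, variance trend, two-sided test, Benjamini-Hochberg adjustment, threshold 0.05), and all adjusted p-values in the text are from it. Genes needed a signal of 15.6 in at least 3 of the 6 libraries; the plan spoke of values above the floor, and a stricter minimum of 183 was run as an alternative. The script was tested on simulated data. Genes were named by rule: in each comparison up to 12 called members of the largest difference in full, other called members by difference, Axin2, Lef1, Tcf7, Fzd4, Lrp5, Sfrp1, Dkk3, Rspo3, Wnt4 and Wnt5a always, and up to 5 called genes of the wider pathway in each direction; other names were chosen after their values were seen. Alternatives were other normalizations, filters and fits, removal of a GC trend, a replicate block and leaving out libraries. Replicate numbers paired the macrophage and endothelial libraries by correlation alone (0.227, 0.41 and 0.362); the labels do not state a pairing. Tables and figures used Python 3.11.15, pandas 2.3.3, numpy 2.4.6 and matplotlib 3.10.9.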

Additional observations from a re-analysis of the deposited data

How the results depend on the processing

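Of 1277 recomputed values for the 81 member results that were called or always named, 1156 kept their direction and side of the threshold, 107 lost a call, 2 gained one and 12 turned direction; the causes were not tested. Over all tested members, those 2 included, 22 values without a call passed the test under an alternative alone. Called under every alternative that tested them were 0 of 2 members in islets and 12 of 19 between the fractions. Against Dox islets these were 18 of 26 for macrophages and 11 of 19 for endothelial cells. The strict filter left some of these members untested, Wnt8a and Wnt11 among them. The 2 islet members called higher became 0 with no filter on low values and 0 with no variance trend. They became 1 without both libraries of high GC deviation and 0 to 3 without 1 library. With the GC trend removed, 1 was called lower (Fzd3, -1.29). Over all genes, the 625 higher and 204 lower in islets became 78 and 19 with no filter. With no variance trend they became 258 and 43. Members higher in macrophages than endothelial cells (8) became 5 under the strict filter and 5 to 8 without 1 library. For macrophages against Dox islets, the 6 higher became 2 with no variance trend, 3 under the strict filter and 2 to 6 without 1 library, and the 20 lower became 12 under the strict filter, which tests fewer genes. For endothelial cells, the 5 higher became 3 with no filter, 2 with all 4 groups fitted together and 1 to 5 without 1 library.

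Directions turned only for members that were not called. In islets, leaving out 1 library gave -0.68 to 0.34 for Axin2, with 0.08 without Dox 3, -0.92 to 0.67 for Lef1, with 0.18 without No Dox 1 and 0.09 without Dox 3, and -0.12 to 0.96 for Lrp5; Lef1 was 0.53 without both libraries of high GC deviation. Tcf7 between the fractions ranged from -0.46 to 0.03, with 0.01 without endothelial library 1. Quantile normalization gave 0.052 for Tcf7 in macrophages and 0.41 for Tcf7 and 0.44 for Axin2 in endothelial cells against Dox islets; it moved the median of all genes from -0.19 to 0.12 and from 0.005 to 0.29. It also moved the calls over all genes, from 3079 higher and 4548 lower to 4195 and 3830 in macrophages, from 1636 and 3066 to 3319 and 2364 in endothelial cells, and from 625 and 204 to 575 and 384 in islets.

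With the replicate number as a block, the pairing added 1 member between the fractions (Rnf43, 2.09, adjusted p = 0.0345 in limma; 9 higher and 11 lower) and changed no other call of the members there. In the other comparisons not all of the 6 libraries correlated best with the library of their own number. Those that did were 4 for macrophages and 2 for endothelial cells against Dox islets, and 0 in islets. There the block gave 2 and 0 in islets, 6 and 20 in macrophages and 5 and 14 in endothelial cells against Dox islets.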

Other observations

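A few members reached the detection level in 1 library of a group only. Sfrp2, a secreted inhibitor, read 104 in No Dox library 1 and 2.39 and 15 in the other No Dox libraries. Rspo1 read 22.1 in macrophage library 1 and 5.5 and 1 in the others. Wnt6 read 20.2 in No Dox library 3 and 1 in all 3 Dox islet libraries.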
